A study of Rattus norvegicus with 12 samples.

Results

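Psma6 encodes an alpha-type subunit of the core particle of the proteasome, the barrel-shaped protease that degrades proteins tagged with ubiquitin. The alpha subunits form the outer rings that gate entry to the barrel, and the beta subunits of the inner rings carry the protease activity. In neurons the proteasome is known for protein turnover at synapses. The open chromatin region described here lies on chromosome 6 and was placed by the study within 2 kb of a Psma6 transcription start site (TSS). It was taken from the study's list of promoter regions altered by acute ethanol, so its Ethanol against Control difference in these samples is what put it on the list. That difference is therefore given as a description, with no test.

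Chromatin accessibility was measured by ATAC-seq, in which a transposase cuts and tags exposed DNA, in frozen amygdala tissue (central, medial and basolateral nuclei) of adult male rats of the Sprague Dawley strain (wild type). The 6 Control rats were injected with saline and the 6 Ethanol rats with ethanol at 1 g/kg, both intraperitoneally, and all 12 were killed 1 h later with 1 library made from each animal. The data were the open peaks that the authors listed for each library, with their positions in the Rnor_6.0 build named in the submitters' processing notes. When the 12 lists were merged by overlaps of at least 1 bp they gave 118874 regions, of which the Psma6 promoter region is 1, and another 8 lay within 50 kb of it on either side. A region is called listed in a library when at least 1 bp of it lies in a peak of that library. The tissue is a mixture of cells, so a region open in more cells and a region more open in each cell cannot be told apart. No gene annotation of that build was used here, and the tissue label was not checked against marker genes.

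The promoter of Psma6 is shown for the letters around an annotated start of the gene, not as the sequence of the peak. The window is the RefSeq promoter in the GRCr8 build, chr6:78514097-78514396 on the plus strand, which runs from 250 bases before the start site to 50 bases after it. Capitals mark every match to the motifs searched.

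Psma6 promoter: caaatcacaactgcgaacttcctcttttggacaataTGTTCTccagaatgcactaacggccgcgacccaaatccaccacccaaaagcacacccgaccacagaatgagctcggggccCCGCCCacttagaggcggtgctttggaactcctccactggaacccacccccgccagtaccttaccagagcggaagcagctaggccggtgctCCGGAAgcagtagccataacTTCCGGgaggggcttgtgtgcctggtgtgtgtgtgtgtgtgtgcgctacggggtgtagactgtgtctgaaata

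This window was 57% G and C and held 15 CpG dinucleotides, against medians of 51.7% and 7 over the 33469 rat promoters of the same length. The first capitals are a match to AGAACA, the core hexamer of the glucocorticoid receptor, which 20.7% of all promoters hold on one strand or the other. The full palindromic site of this receptor, which 0.0388% of promoters hold, was not matched. The second capitals match GGGCGG, the GC box, found in 33.1% of promoters. The last 2 runs match CCGGAA, the core of the site of ETS factors, once on each strand, which 15% of promoters hold at least once. Of 47 genes for proteasome subunits, regulators and assembly factors, 42 had a window in the table, and GGGCGG was found in 30 of these, CCGGAA in 21 and AGAACA in 3. No match was found for the antioxidant response element TGACNNNGC (in 12.1% of promoters), the cAMP response element TGACGTCA (1.83%), the E-box CACGTG (6.42%), the hypoxia response core ACGTG (19.3%), which the E-box contains, the CCAAT box (37.5%), the TATA box TATAAA (14.2%) or the YY1 site AAGATGGCG (1.73%). This start site lies inside the annotated span of Psma6 in GRCr8. How far before it the span begins, and how many annotated starts the gene has, were not determined. The study's list gives the peak a distance from the start site it used and does not place it over that site. Whether the printed window, or any of its motif matches, lies under the listed peaks was not determined, because the builds differ. The table also holds 5 Psma6 pseudogenes.

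The Psma6 promoter region, chr6:76175485-76176788, was 1304 bp long and was listed in all 6 Ethanol libraries but in 1 of the 6 Control libraries. In the Ethanol libraries the peak covered 935 bp in Ethanol 1, 866 bp in Ethanol 2, 888 bp in Ethanol 3, 771 bp in Ethanol 4, 1056 bp in Ethanol 5 and 1041 bp in Ethanol 6. In the Control libraries it covered 772 bp in Control 1, and no peak was listed in Control 2, 3, 4, 5 or 6. Covered length was thus 926 ± 109 bp for Ethanol against 129 ± 315 bp for Control (SD, n = 6), and the Control mean comes from 1 library. The groups overlapped in length only through Control 1, which exceeded Ethanol 4 by 1 bp. Of the 77224 regions listed in at least 2 libraries, 52 (0.0673%) had a peak in 6 Ethanol and at most 1 Control library, and nothing is read from this share because the region was chosen on the same contrast.

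The peaks lay in nearly the same place in every library that had one. Each of the 7 libraries listed a single peak there, their starts spanned 282 bp and their ends 382 bp. A stretch of 640 bp, chr6:76175767-76176406, was inside the peak of all 7 and made up 49.1% of the region. The centres of the 7 peaks had an SD of 99.1 bp. Among the Ethanol libraries the coefficient of variation (CV) of covered length was 11.8%. These were rather short peaks for their libraries: on average 36.4% ± 1.87 (SD, n = 6) of the peaks of an Ethanol library were shorter.

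**Figure D1:**
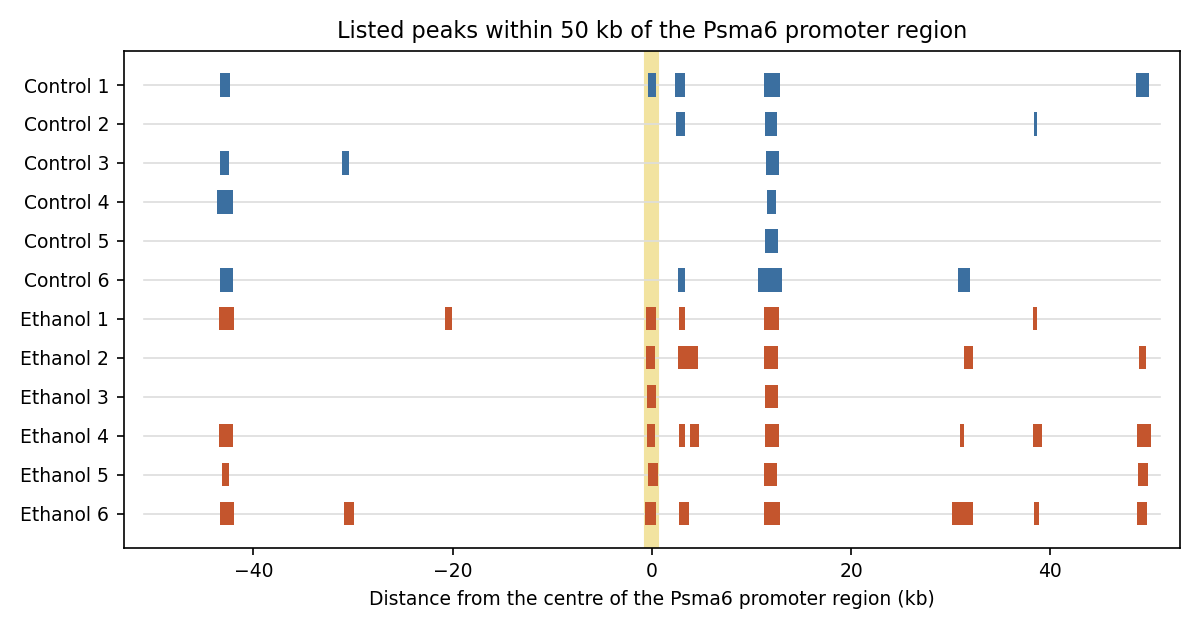
Peaks listed in each of the 12 libraries (rows) by distance in kb from the centre of the Psma6 promoter region (shaded), with Control in blue and Ethanol in orange. The shaded region holds a peak in all 6 Ethanol libraries and in Control 1, and the peak at 11.9 kb is present in all 12.

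The authors' score of each peak, whose meaning was not given in the sources used here, served here as a rank among the peaks of the same library. These ranks are coarse, because a list held only 150 to 186 distinct scores and many peaks tied. A percentile counts only the peaks that scored lower, and shortened lists took ties in genome order. In Control 1 the Psma6 peak scored 6.06, higher than 20.1% of the peaks of that library. In the Ethanol libraries it ranked above 52.0% of peaks in Ethanol 1, 51.4% in Ethanol 2, 62.6% in Ethanol 3, 79.4% in Ethanol 4, 63.8% in Ethanol 5 and 73.5% in Ethanol 6. The mean was 63.8% ± 11.2 (SD, n = 6), and the lowest Ethanol library stood well above Control 1. Among the higher scoring 50% of peaks in each list, the region was listed in 6 of 6 Ethanol and 0 of 6 Control libraries. The lists ended at scores between 5.03 and 5.67, so a library without a listed peak may still have held reads there.

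**Figure D2:**
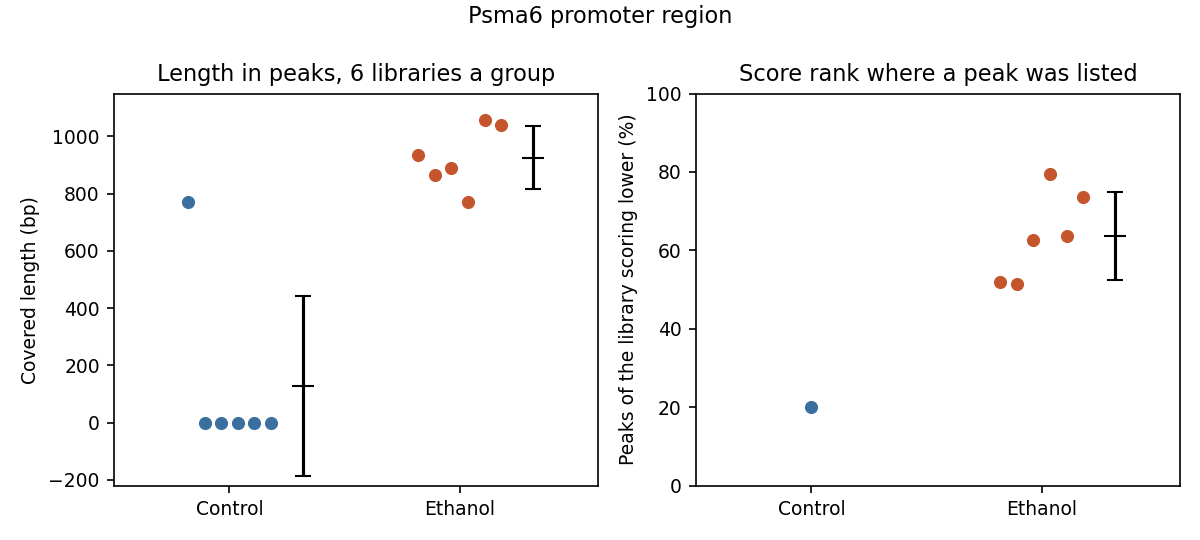
Left, length in bp of the Psma6 promoter region lying in peaks, 1 point per library; right, percent of the peaks of a library that scored lower, for the libraries with a peak there. Bars are means with SD (no SD for the single Control point at right): the Ethanol points span 771 to 1056 bp and 51.4% to 79.4%, and Control 1 sits at 772 bp and 20.1%.

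Long and short lists were found both with and without the peak. The lists held between 50370 and 75847 peaks and covered between 75.6 and 134.6 Mb, and no read counts are given in them, so sequencing depth is unknown. At the median the Ethanol lists were longer, with 63426.5 peaks against 54811 for Control and 90.6 Mb against 80.2 Mb, though the ranges overlapped. The part of list length in the difference at Psma6 was not tested. Control 6, with 73110 peaks the second longest list, had no peak at the Psma6 promoter region, and Control 5 with 66785 had none either. Ethanol 5, with 50370 peaks the shortest list, had the widest one at 1056 bp, and Ethanol 3 with 53509 had 888 bp. The numbers in the peak names ran much higher than the lists, up to 793637 in Ethanol 5 and 530355 in Ethanol 4. The lists held 6.35% of these numbers in Ethanol 5 and 13.0% in Ethanol 4, the lowest and highest shares. What was left out is not given in the sources used here, so a short list is not shown to mean few peaks called. In lists shortened to the 50370 best scoring peaks, the length of the shortest, the region was still listed in 6 of 6 Ethanol and 1 of 6 Control libraries. Divided by the covered length of the library, the region averaged 9.79 ± 1.92 bp per Mb for the Ethanol group against 1.70 ± 4.17 for the Control group (SD, n = 6). On this scale Control 1, at 10.2 bp per Mb, lay inside the Ethanol range of 7.74 to 12.7 bp per Mb.

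**Figure D3:**
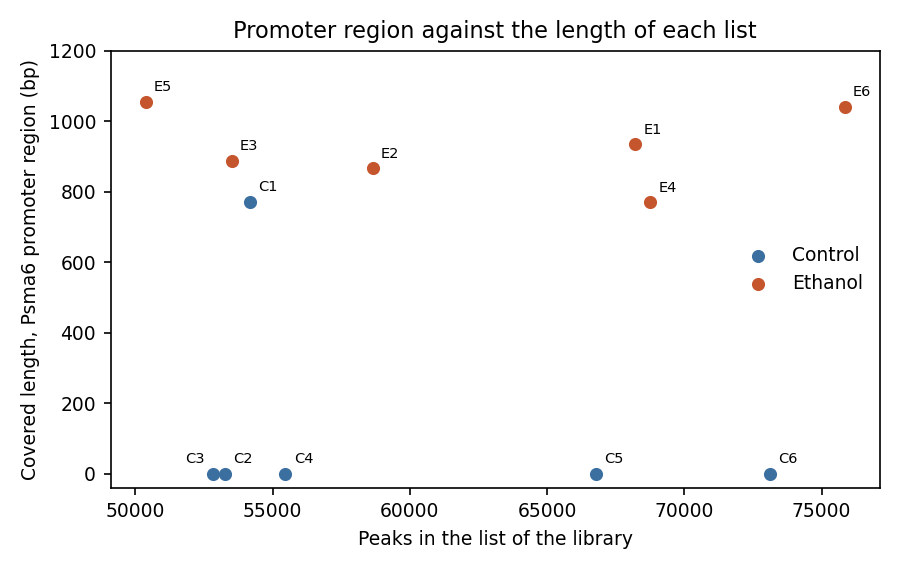
Length in bp of the Psma6 promoter region in peaks (vertical) against the number of peaks in the list of each library (horizontal), labelled C for Control and E for Ethanol. The 5 Control libraries at 0 bp include lists of 66785 and 73110 peaks, and the shortest list, Ethanol 5, has the highest value.

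The next question was whether the surroundings of Psma6 were also listed more often after ethanol. Unlike the promoter region, the flanks were not used to choose the locus and were tested. Peaks in the 50 kb on both sides covered 37.6 ± 17.6 bp per Mb of listed length in the Control group against 49.4 ± 21.5 in the Ethanol group (SD, n = 6). The difference of 11.8 bp per Mb was within the spread between animals (exact permutation test, two-sided, p = 0.318), although 5 of 6 Ethanol libraries lay above the Control median. Of the 8 flanking regions, Control libraries listed 2.83 ± 1.17 and Ethanol libraries 4.33 ± 2.16 (SD, n = 6; exact permutation test, two-sided, p = 0.221). Without Ethanol 3, which listed 1 of the 8, this difference rose from 1.5 to 2.17 regions (exact permutation test, two-sided, p = 0.0498). This was the smallest p when each library was left out in turn. The other runs gave p-values from 0.162 to 0.357 by the same test. The summed length without Ethanol 3 had an exact permutation p of 0.106, so nothing is read from this run alone. The upstream side had 10.8 ± 9.26 bp per Mb in Control and 10.3 ± 8.95 in Ethanol, and the downstream side 26.8 ± 16.2 and 39.1 ± 18.5 (SD, n = 6), with two-sided exact permutation p-values of 0.961 and 0.249.

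The flanks differed widely between animals of one group. Control libraries had from 13.3 bp per Mb in Control 5 to 64.9 in Control 1, the same Control library that had the Psma6 peak. Ethanol libraries had from 16.6 in Ethanol 3 to 77.5 in Ethanol 4. In Ethanol 3 the promoter region made up 40.8% of all listed length within 50 kb, against 9.77% in Ethanol 4 and 13.6% in Control 1. Farther out, from 50 to 500 kb on each side, 40 regions were merged. Peaks there covered 324 ± 38.2 bp per Mb for Control against 340 ± 38.1 for Ethanol (SD, n = 6; exact permutation test, two-sided, p = 0.470). The study assigned 2 of these regions to Nfkbia and ranked them high for their difference. Without these 2, the Ethanol minus Control difference fell from 16.3 to 9.10 bp per Mb (exact permutation test, two-sided, p = 0.682).

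Each neighbouring region was then tested within the fit over all regions. For detection, Fisher's exact test (two-sided) was used, whose smallest possible p with 6 libraries a group is 0.00216. After Benjamini-Hochberg adjustment over 77224 regions, a call would need at least 3344 complete splits, and 14 were found. With 14, no region (0%) could have an adjusted p under 0.05, whatever its own split, so this outcome says nothing about single regions. Of the 77224, 148 (0.192%) had an unadjusted p under 0.05, with more Ethanol libraries at 0.148% of the regions and more Control libraries at 0.0440%. Of the 8 neighbours, 7 were listed in at least 2 libraries and tested. The smallest unadjusted Fisher's exact p among them was 0.242. More Ethanol than Control libraries listed 4 of the 7, and for the other 3 the numbers were equal. Over all regions tested, 30.0% were listed in more Ethanol and 21.1% in more Control libraries.

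**Figure D4:**
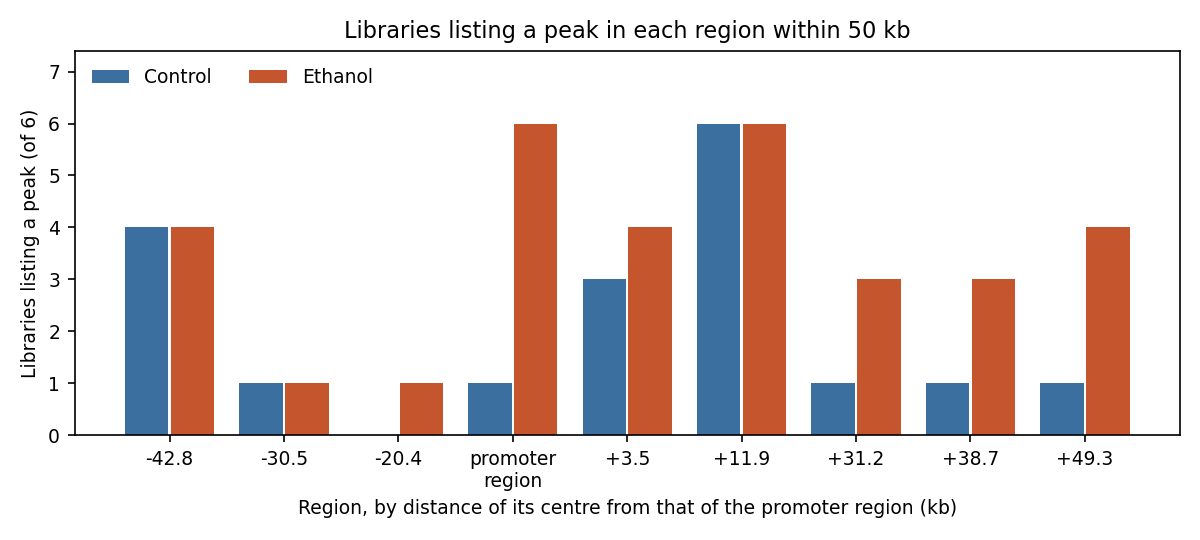
Number of libraries, of 6 in each group, listing a peak in the Psma6 promoter region and in the 8 regions within 50 kb, ordered by the distance in kb of their centres from that of the promoter region. The promoter region is listed in 1 Control and 6 Ethanol libraries, and the region at 11.9 kb in all 12.

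The nearest neighbour, chr6:76178420-76180828, began 1.63 kb downstream of the promoter region and was listed in 3 Control and 4 Ethanol libraries. Peaks covered 1080 bp in Control 1, 853 bp in Control 2 and 706 bp in Control 6, and 593 bp in Ethanol 1, 1994 bp in Ethanol 2, 1459 bp in Ethanol 4 and 1027 bp in Ethanol 6. The groups overlapped, and the libraries were not those of the promoter region: Control 2 and Control 6 listed this neighbour without it, and Ethanol 3 and Ethanol 5 the reverse. Its peaks ranked low, with a median over the 7 libraries above 19.0% of the peaks of a library, against 62.6% for the promoter region over its own 7.

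The next region downstream, chr6:76186813-76189253, was listed in all 12 libraries and ranked above 85.8% to 95.0% of the peaks of each. Peaks covered 1590, 1199, 1262, 902, 1297 and 2441 bp in Control 1 to 6 and 1542, 1457, 1289, 1480, 1388 and 1653 bp in Ethanol 1 to 6. The means were 1449 ± 534 bp and 1468 ± 125 bp (SD, n = 6), and both the lowest and the highest value were Control libraries. The log2 difference from limma was 0.02 ± 0.16 (SE) with an adjusted p of 0.997. None of the 21640 regions listed in all 12 libraries (0%) passed an adjusted p under 0.05 in limma, while 2.95% were longer and 2.22% shorter in Ethanol at an unadjusted p under 0.05, 1120 in all. The covered length of this region therefore showed no difference beyond the spread (limma, unadjusted p = 0.884). Its listing in all 12 libraries cannot be set against the split at Psma6, because a peak of such high rank stays listed.

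The third region downstream, chr6:76206301-76208344, was covered for 1220 bp in Control 6 and for 818, 496 and 2039 bp in Ethanol 2, 4 and 6 (two-sided Fisher's exact test, unadjusted p = 0.545). The remaining regions downstream were listed in 1 Control and 3 Ethanol libraries at 38.7 kb and in 1 Control and 4 Ethanol libraries at 49.3 kb, counted between centres. Upstream, the nearest region was listed in Ethanol 1 alone, for 651 bp with its centre at -20.4 kb, and was not tested. The next, at -30.5 kb, was covered for 685 bp in Control 3 and 1057 bp in Ethanol 6. The farthest upstream, chr6:76132495-76134196, was listed in 4 libraries of each group. Peaks covered 927, 908, 1641 and 1308 bp in Control 1, 3, 4 and 6 and 1502, 1419, 675 and 1356 bp in Ethanol 1, 4, 5 and 6, so the groups overlapped over most of their range.

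In GRCr8 the protein-coding gene that follows Psma6 is Nfkbia, which encodes an inhibitor of NF-kappaB that is itself degraded by the proteasome, and the one before it is Prorp, which encodes the catalytic subunit of mitochondrial RNase P. From 50 to 100 kb away 12 regions were merged. The study assigned 2 of these to Nfkbia and ranked them high for their difference. They are therefore described without a test of their own and are left out of the counts of the other 10. The sum from 50 to 500 kb above and the alternative with flanks of 100 kb do include them. Of the other 10, Ethanol libraries were more numerous at 4 and Control libraries at 1, and 5 were listed in all libraries. Over all regions tested these shares were 30.0% and 21.1%, so nothing is read from the counts. The smallest unadjusted two-sided Fisher's exact p among the 10 was 0.455. For the 5 listed in all libraries this test cannot show a difference, because it does not use covered length. The region chr6:76264972-76267241 was covered for 337 bp in Control 3 and for 1051, 380 and 2223 bp in Ethanol 4, 5 and 6. The region chr6:76253577-76254401 was covered for 825 bp in Ethanol 4 and 822 bp in Ethanol 6 and was not listed elsewhere. Both were thus less uniform over the Ethanol libraries than the Psma6 promoter region. The region next to them, chr6:76267759-76271744, was open in all 12 libraries, averaging 2908 ± 487 bp for Control against 2964 ± 421 bp for Ethanol (SD, n = 6) and a limma log2 difference of -0.03 ± 0.12 (SE, adjusted p of 0.994). The largest difference among the 5 was at chr6:76077046-76081875, with 1849 ± 254 bp for Control and 2884 ± 973 bp for Ethanol (SD, n = 6). Its limma log2 difference was 0.51 ± 0.23 (SE, adjusted p of 0.938). The rest of the 5 had 0.23 ± 0.23, 0.41 ± 0.27 and -0.11 ± 0.46 (SE), with limma adjusted p-values from 0.977 to 0.994.

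The Psma6 promoter region was set beside the 51 other regions of the genome that shared its split, a peak in 6 Ethanol and at most 1 Control library. The opposite split was found at 16 regions (0.0207%). Because these regions were drawn up from the contrast itself, the comparison is a description. The Psma6 promoter region was in addition chosen from the study's list of altered promoter regions. That choice rested on the same Ethanol libraries, so nothing is read from its rank among the 52. The Psma6 promoter region had the highest mean score percentile over the Ethanol libraries of the 52, 63.8%, against a median of 29.7% and a lowest value of 3.30%. It was the only 1 of the 52 whose 6 Ethanol peaks all fell in the higher scoring 50% of their lists. The next highest, chr14:83720880-83722011, had a mean of 58.5% and kept 4 of 6. The CV of its covered length in Ethanol was also the lowest of the 52, 11.8% against a median of 33.0%. In lists of equal length, 18 of the 52 kept the split, Psma6 among them.

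**Figure D5:**
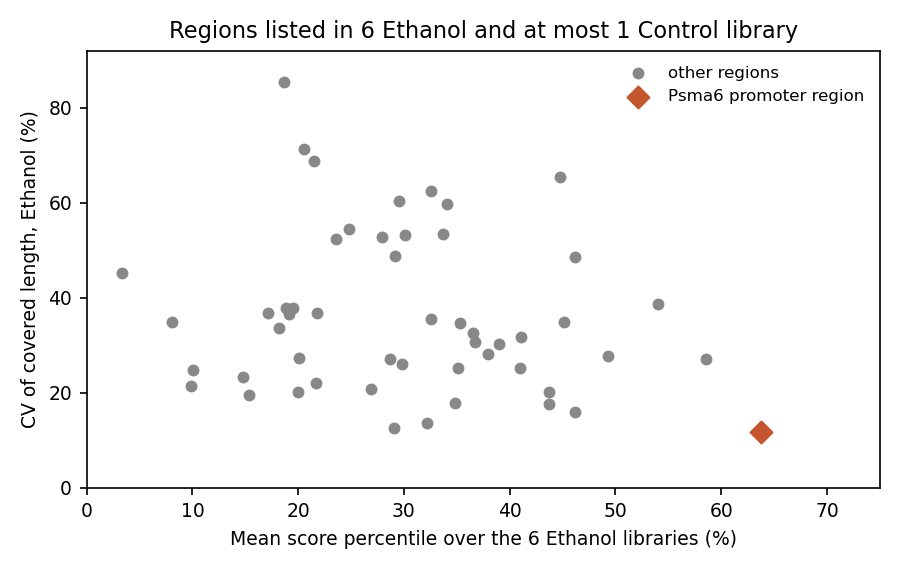
Mean percent of lower scoring peaks over the 6 Ethanol libraries (horizontal) against the CV of covered length in percent over the same libraries (vertical), 1 point for each of the 52 regions listed in 6 Ethanol and at most 1 Control library. The Psma6 promoter region (diamond) lies at 63.8% and 11.8%, to the right of and below the other points.

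Most of the other 29 loci of the study's list held a peak in every library. All 12 libraries listed 18 of them, and 0 had a peak in 6 Ethanol and at most 1 Control library. The locus nearest to the Psma6 split was LOC108353020 on chromosome 15, listed in 0 Control and 5 Ethanol libraries. Pygm, which encodes the glycogen phosphorylase of muscle, was listed in 0 and 4, and Slc10a6, a solute carrier gene, in 0 and 3. Ogdhl, a gene related to that for oxoglutarate dehydrogenase, and LOC102550503 were each listed in 3 Control and 6 Ethanol libraries. In the other direction LOC100911237, on the list as less open, was listed in 3 Control and 0 Ethanol libraries.

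Likeness to the Psma6 promoter region was measured as Pearson's r of covered length per Mb over the 12 libraries after the group means were subtracted. The values share their libraries and the division by covered length, so r is a description only. Control 1, the single Control library with a peak, made up 68.8% of the squared deviation of the Psma6 values from their group means, so r rests largely on that library. Of the listed loci the closest were Cxxc4 at 0.919, Nipsnap3b at 0.912 and the upstream Hif3a locus at 0.797, and LOC102552674 was the least alike at -0.391. Cxxc4 and Nipsnap3b are on the list as less open after ethanol, and with the group means left in their r fell to 0.0874 and 0.231, while that of Hif3a was 0.822. Without Control 1 the r after group means was 0.730 for Cxxc4, 0.751 for Nipsnap3b and 0.654 for Hif3a. That of LOC102552674 turned to 0.322, and the least alike locus was then Slc10a6 at -0.836, from -0.349 with Control 1. Over the 54245 other regions listed in at least 4 libraries, 29 had an r above 0.9. The 3 highest were chr5:130197081-130198465 at 0.968, chr15:8695678-8697450 at 0.965 and chr2:261401798-261404027 at 0.954, and each was listed in all 12 libraries. Without Control 1 these were 0.894, 0.803 and 0.817.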

How the data were processed

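ATAC-seq peak lists of 12 amygdala libraries, 6 Control and 6 Ethanol, were used as deposited. One list was deposited per library, and each gives the position and name of each peak and a score set by the authors. Per the labels, the submitters' processing notes name BWA, MACS2 2.1.1, bedtools 2.27.1, featureCounts 1.5.0, edgeR and Rnor_6.0, without their roles. Treatment of duplicate and mitochondrial reads, any transposase shift and the filter behind the lists are not given in the sources used here. The lists hold no counts, so depth is unknown and the number of animals limits the precision.

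Groups came from sample titles. The peak position came from the study's list, rounded outward to 100 bp, and its bounds from the merged lists. Detection was tested by Fisher's exact test over regions in at least 2 libraries. Log2 covered length of regions in all 12 was compared with limma 3.58.1 (R 4.3.3), centred on library medians, both with Benjamini-Hochberg adjustment. Sums were tested by exact permutation of the 12 libraries (smallest possible p 0.00216, Python 3.11.15). The steps were tested on simulated data.

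The locus, motif and gene lists were chosen with earlier results of these data known. Described in full were the promoter region, the 3 nearest regions on each side, regions within 50 kb listed in all 12 libraries or with an unadjusted p under 0.05, both Nfkbia regions, and the 3 loci and 3 regions most alike. Alternatives were the higher scoring 50% of peaks, equal peak numbers, no division, 50% coverage, flanks of 25 and 100 kb, other minimum libraries, other centring, a pseudocount of 100 bp, the replicate block and leaving out each library. Leaving out the region listed in all 12, both Nfkbia regions (wider sums) or Control 1 (likeness) was added after the data were seen. Accessibility at other proteasome genes was not analysed here.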

Additional observations from a re-analysis of the deposited data

Results flagged for a closer look

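Of 27 groups of 6 values, 8 held a value far from the other 5 by Dixon's ratio of gap to range. For normally distributed values chance gives about 1 in 20. In each of the 8 a single library of its group listed the region and the other 5 had 0. This gives the largest possible ratio, so the rate of 1 in 20 does not apply to them. Control 1 had 10.2 bp per Mb at the Psma6 promoter region, where the other 5 Control libraries had no peak, and the result without it stands below. Among the neighbours the values were 685 bp in Control 3 and 1057 bp in Ethanol 6 at -30.5 kb, 651 bp in Ethanol 1 at -20.4 kb, 1220 bp in Control 6 at 31.2 kb downstream, 345 bp in Control 2 at 38.7 kb downstream and 1305 bp in Control 1 at 49.3 kb downstream. At the Nfkbia gene body region Control 3 had 337 bp. No score percentile, flank sum or sum of the wider surroundings stood apart in this way.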

How the results depend on the processing

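Under alternatives that kept all libraries, the 18 values of the tested sums over the flanks and the wider surroundings kept direction and call, and 5 of 6 limma counts stayed at 0. The size of the flank difference did depend on the window. It was 3.49 bp per Mb with flanks of 25 kb and 40.4 with flanks of 100 kb (exact permutation p = 0.524 and 0.154). The difference in regions listed was 0.333 and 2.83 (exact permutation p = 0.675 and 0.154). The flanks of 100 kb include both Nfkbia regions. The untested values of the Psma6 promoter region kept their direction, and 6 of 8 also their size. Among the higher scoring 50% of peaks the Ethanol minus Control difference at the Psma6 promoter region was 15 bp per Mb, from 8.09, and the mean Ethanol score percentile was 27.5%, from 63.8%. In those lists the divisor and the ranks are smaller by construction, and the Control 1 peak is no longer listed. With the same number of peaks the values were 9.15 bp per Mb and 55.7%. With regions in at least 2 libraries and a pseudocount of 100 bp, limma called 16 regions against 0, and 3430 against 1120 at an unadjusted p. Detection at an unadjusted p called 60 regions among the higher scoring 50% and 14 with the replicate block, against 148. Same-numbered libraries did not pair (correlations of deviations from -0.0722 to 0.214, mean 0.0484, against -0.00961 for other pairs). With the replicate block the flank difference of 11.8 bp per Mb and 1.5 regions had exact sign-flip p-values of 0.313 and 0.188, and no call of a sum or of limma changed.

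Leaving out each library in turn, the promoter difference ranged from 7.51 bp per Mb without Ethanol 5 to 9.79 without Control 1, the difference in libraries listing it from 4 to 6, and the score percentile from 60.6% to 66.2%. The flank difference ranged from 6.17 bp per Mb without Ethanol 4 to 18.4 without Ethanol 3, its number of regions from 0.967 to 2.17, and the wider difference from 5.17 to 29.3 bp per Mb. Without the region listed in all 12 libraries, an alternative chosen after the data were seen, the flank difference was 12.7 bp per Mb (exact permutation p = 0.264). The log2 difference of the region listed in all 12 libraries lay between -0.0935 (reversed), the value without Control 4, and 0.14, the value without Control 6, and limma called 0 regions, or 1 without Ethanol 2. Adjusted detection called 0 regions under every setting. In the main setting a call would need at least 3344 complete splits and 14 were found, so this says nothing about single regions. At an unadjusted p it called 251 to 364 regions, where 5 libraries against 6 allow other splits. The lists hold no depth, so a region not listed is not shown to be closed.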
